A study of Mus musculus with 6 samples.

Results

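The ADAMTS proteases (a disintegrin and metalloproteinase with thrombospondin motifs) and the ADAMTS-like proteins of cultured mouse fibroblasts were followed through 24 h of TGFβ treatment. The set holds 10 of the 25140 genes in the deposited RNA-seq table, taken by symbol: the proteases *Adamts1*, *Adamts2*, *Adamts4*, *Adamts5*, *Adamts9*, *Adamts12* and *Adamts15*, and the ADAMTS-like genes *Adamtsl1*, *Adamtsl2* and *Adamtsl4*. These genes were selected with their measured response to TGFβ already known, so their differences between the groups are given as a description, without a test. The cells were primary cardiac fibroblasts from the adult heart of C57BL/6 mice at passage 1, by the sample labels, while the results of the study call them mouse embryonic fibroblasts. They were grown in 10% FBS and kept in low serum for 16 h by the labels, and for 24 h by the study's methods. They then received TGFβ at 10 ng/ml or vehicle in 1% FBS for 24 h, with 3 biological replicates in each group. The labels name no transgene, deletion or other agent for either group. Because the libraries are bulk cultures, fewer cells of a type and less RNA per cell cannot be told apart.

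ADAMTS proteases are secreted zinc metalloproteases that are made as inactive precursors, trimmed by furin-like convertases and held on the cell surface and matrix by their C-terminal domains. They cut particular matrix proteins: a proteoglycan-cleaving branch cuts aggrecan and versican, another branch removes the N-terminal propeptides of fibrillar procollagens, and a further branch cuts cartilage oligomeric matrix protein (COMP). ADAMTS-like proteins share the thrombospondin repeats but lack the protease domain, and several of them bind fibrillin microfibrils, the scaffolds on which latent TGFβ is stored. TGFβ itself turns fibroblasts into matrix-secreting, contractile myofibroblasts.

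With TGFβ, the transcripts of the set moved in both directions. The microfibril-binding *Adamtsl2* and the COMP-cleaving *Adamts12* lay higher, at 2.82 and 2.24 times the vehicle level. The proteoglycanases *Adamts15*, *Adamts9*, *Adamts5* and *Adamts1*, the procollagen N-proteinase *Adamts2* and the ADAMTS-like *Adamtsl4* and *Adamtsl1* lay lower, at between 0.279 and 0.763 times. The aggrecanase *Adamts4* differed little, at 0.933 times. In the fit over all genes, 2 members were past the threshold (an adjusted p of 0.05) upwards and 7 downwards. The same fit called 20.5% of the 14334 genes tested higher, 20.1% lower and 40.7% in either direction. Of the members, 5 were also beyond 1 on the log2 scale, against 6.77% of all genes tested. In 9 members the groups did not overlap, as in 53.3% of all genes tested. The median log2 fold change was -0.62 over the 10 members and 0 over all genes tested, and the median size was 1.06 against 0.21. All 10 passed the filter on low counts. Since the selection used this contrast, nothing follows from these counts.

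The libraries are called A, B and C (vehicle) and D, E and F (TGFβ), in the order of the table's columns, and held between 27851677 and 31072338 reads counted on genes. Replicates of a group differed by more than counting noise in every pair (chi-square per gene between 7.95 and 27.1). Of 6 common TGFβ target genes, 5 rose with TGFβ, among them *Acta2* (log2 fold change 1.03, adjusted p = 6.93e-05, edgeR quasi-likelihood test) and *Tagln* (0.97, adjusted p = 6.87e-05), and *Smad7* did not pass the test (0.02, adjusted p = 0.881). All 10 fibroblast markers were detected, with a summed level of 53481 to 63309.6 CPM (read counts over the TMM-adjusted library size) in vehicle and 49902 to 55763 in TGFβ. Of these markers 8 were lower and 0 higher. Of 7 cardiomyocyte markers, 6 had group means below 1 CPM. The other, *Tnnt2*, measured 58.3, 37.6 and 44.4 CPM in vehicle and 39.5, 26.6 and 35.9 CPM in TGFβ, and did not pass the test (adjusted p = 0.0822 in edgeR). All 8 endothelial markers (418 to 714 CPM in sum) and all 7 leukocyte markers (211 to 347 CPM) were detected, none of them called in either direction. Of 5 smooth muscle markers 3 rose (139 to 161 CPM in sum in vehicle, 177 to 245 in TGFβ). Of 5 pericyte markers 1 rose (*Cspg4*, mean 19.5 to 53.3 CPM) and 1 fell (*Notch3*, 207 to 57.3 CPM). The pericyte sum was 224 to 255 CPM in vehicle and 115 to 142 in TGFβ, most of it *Notch3* in vehicle. None of 5 mesothelial markers passed the test (24.6 to 83.7 CPM in sum in vehicle, 16.1 to 41.6 in TGFβ). The part of other cell types in the values below was not tested.

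**Figure D1:**
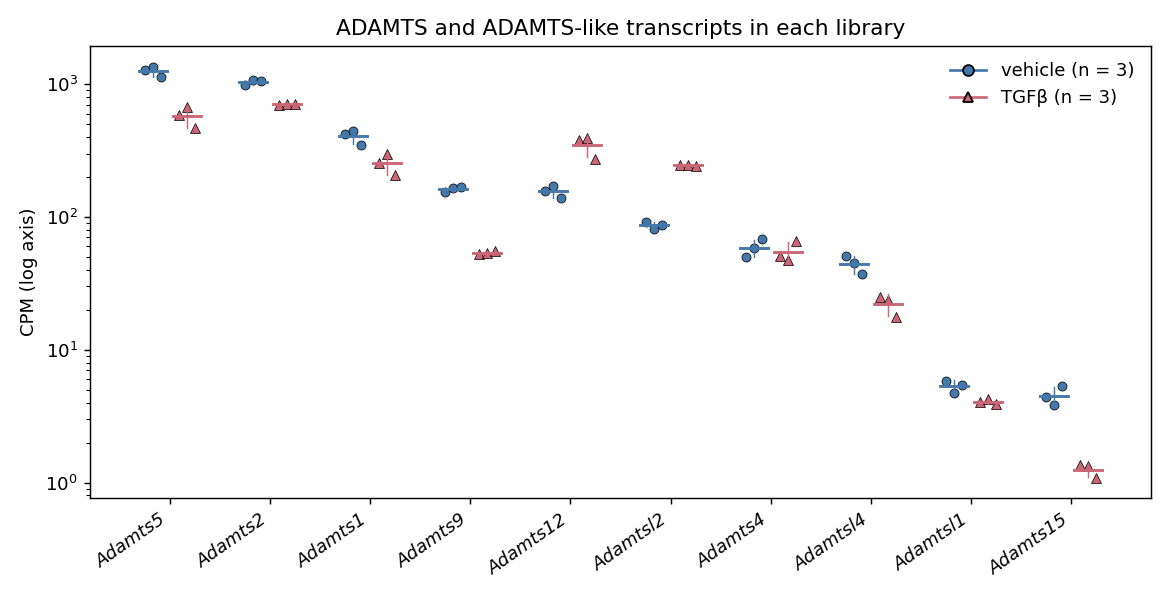
Levels of the 10 genes in each library, in CPM on a log axis, with vehicle libraries as circles and TGFβ libraries as triangles (n = 3 each). Horizontal lines are group means and vertical lines SD. *Adamts12* and *Adamtsl2* lie higher with TGFβ, *Adamts4* overlaps between the groups, and the other 7 lie lower.

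Promoter sequence of RefSeq (GRCm38.p6), in windows of 300 bases around the start, was matched by symbol for 6 of the 10 members. The windows of *Adamtsl2*, the member with the largest rise, and of *Adamts1* and *Adamts9*, with clear falls, are shown because they differ in their core elements. Capitals mark a TATA box (TATAAA, searched on the gene's strand) and a SMAD box (CAGAC, searched on both strands, here read as GTCTG):
Adamtsl2, chr2:27079129-27079428, plus strand: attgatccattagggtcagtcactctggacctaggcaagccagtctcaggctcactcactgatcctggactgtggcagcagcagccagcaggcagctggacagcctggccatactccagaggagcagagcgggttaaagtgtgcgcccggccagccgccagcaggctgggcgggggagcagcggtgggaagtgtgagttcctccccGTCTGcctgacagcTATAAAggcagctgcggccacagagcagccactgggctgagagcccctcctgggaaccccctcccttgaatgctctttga
Adamts1, chr16:85803064-85803363, minus strand: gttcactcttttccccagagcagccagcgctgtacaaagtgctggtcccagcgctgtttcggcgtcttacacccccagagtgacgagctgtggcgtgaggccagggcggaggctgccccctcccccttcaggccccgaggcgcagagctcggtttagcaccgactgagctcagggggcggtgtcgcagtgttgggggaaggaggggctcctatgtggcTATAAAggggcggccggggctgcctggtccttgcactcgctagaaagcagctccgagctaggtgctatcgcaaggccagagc
Adamts9, chr6:92943485-92943784, minus strand: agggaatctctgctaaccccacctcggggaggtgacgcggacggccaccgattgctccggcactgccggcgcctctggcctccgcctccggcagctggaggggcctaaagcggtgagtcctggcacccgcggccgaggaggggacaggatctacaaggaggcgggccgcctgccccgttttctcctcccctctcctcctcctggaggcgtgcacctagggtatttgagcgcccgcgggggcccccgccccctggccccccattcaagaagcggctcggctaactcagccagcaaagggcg

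In the *Adamtsl2* window the SMAD box begins 44 bases and the TATA box 30 bases upstream of the start, and in that of *Adamts1* the TATA box begins 32 bases upstream. TATAAA was found in 2 of the 6 windows and in 8.32% of all 32817 promoter windows of the same length. CAGAC was found in 1 of the 6 and in 49.6% of all windows. Neither the AP-1 motif TGANTCA (7.81% of all windows) nor the TEAD motif GGAATG (14.7%), both searched on either strand, was in any of the 6. None of these motifs was in the windows of *Adamts9*, *Adamts2*, *Adamtsl4* and *Adamts12*, the last being the other member that rose. The GC content was 70% for *Adamts9*, 77.3% for *Adamts2*, 68.0% for *Adamtsl4* and 62.0% for *Adamts12*. It was 62.3% for *Adamtsl2* and 64.7% for *Adamts1*, with a median of 52.7% over all windows. A match of letters is a description, and its use as a site was not tested.

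Among the proteoglycanases, *Adamts5* (ENSMUSG00000022894), the main aggrecanase of mouse cartilage and a versican-cleaving enzyme elsewhere, had the most counts in vehicle. It spans 85856173 to 85901828 of chromosome 16, minus strand (GRCm38, GENCODE M21 annotation). *Adamts5* measured 1269, 1343 and 1126 CPM in vehicle and 585, 673 and 465 CPM in TGFβ. The lowest vehicle library was well above the highest TGFβ library, and the log2 fold change was -1.12 (SE 0.13). *Adamts1* (ENSMUSG00000022893), which cleaves versican and nidogens, spans 85793827 to 85803113 on the same strand. The gap between both genes is 53.1 kb, and 1 annotated gene lies in it. *Adamts1* measured 419.6, 447 and 349 CPM in vehicle and 255, 299.7 and 205 CPM in TGFβ. The groups did not overlap, and the log2 fold change was -0.68 (SE 0.14), smaller in size than that of its neighbour.

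*Adamts9* (ENSMUSG00000030022), a versican-cleaving enzyme and a mammalian relative of the worm protease GON-1, spans 92772699 to 92943492 of chromosome 6, minus strand. *Adamts9* measured 153, 165 and 168 CPM in vehicle against 52.1, 53.7 and 55.3 CPM in TGFβ. The spread within each group was small beside the gap, and the log2 fold change was -1.59 (SE 0.05). *Adamts15* (ENSMUSG00000033453), also a versican-cleaving protease, spans 30899155 to 30922452 of chromosome 9, minus strand. It was weakly expressed, with 140, 113 and 158 reads in vehicle and 37, 37 and 31 in TGFβ, or 4.4, 3.81 and 5.3 CPM against 1.35, 1.33 and 1.09 CPM. Its log2 fold change of -1.84 (SE 0.18) was the lowest of the set, with the widest SE.

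*Adamts4* (ENSMUSG00000006403), an aggrecanase, spans 171250421 to 171260637 of chromosome 1, plus strand. Its levels were 49.8, 58.2 and 67.7 CPM in vehicle and 50.9, 47.1 and 65.9 CPM in TGFβ. The groups overlapped, and the log2 fold change was -0.10 (SE 0.14), ranging from -0.26 to 0.02 when single libraries were left out.

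The other branches of protease diverged. *Adamts2* (ENSMUSG00000036545), the main enzyme that trims the N-propeptides of procollagens I and III, spans 50602084 to 50807573 of chromosome 11, plus strand. It measured 976, 1065 and 1059 CPM in vehicle and 696, 710.4 and 706 CPM in TGFβ, a log2 fold change of -0.55 (SE 0.05). The TGFβ libraries were nearly equal to each other and all below the vehicle libraries. *Adamts12* (ENSMUSG00000047497), which with its close relative *Adamts7* cleaves COMP, spans 11064790 to 11349231 of chromosome 15, plus strand. It measured 156, 172 and 139 CPM in vehicle and 378, 395 and 275 CPM in TGFβ. All TGFβ libraries were above all vehicle libraries, with library F the lowest of the TGFβ group, and the log2 fold change was 1.17 (SE 0.14).

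The 3 ADAMTS-like members did not move together. *Adamtsl2* (ENSMUSG00000036040) binds fibrillin-1 and LTBP1, and its loss of function in people causes geleophysic dysplasia, a disorder of short stature with thickened skin and heart valves. It spans 27079379 to 27108981 of chromosome 2, plus strand. *Adamtsl2* measured 92, 81.2 and 86.5 CPM in vehicle and 246, 244 and 242 CPM in TGFβ, a log2 fold change of 1.49 (SE 0.05). The SD of the TGFβ libraries was 1.67 CPM. *Adamtsl4* (ENSMUSG00000015850), a microfibril-associated protein known from the suspension of the eye lens, spans 95676201 to 95687917 of chromosome 3, minus strand. It measured 50.4, 44.9 and 36.9 CPM in vehicle and 25.1, 23.7 and 17.5 CPM in TGFβ, a log2 fold change of -1.0 (SE 0.15). *Adamtsl1* (ENSMUSG00000066113), also named punctin, spans 85514172 to 86428385 of chromosome 4, plus strand. Its levels were 5.85, 4.72 and 5.43 CPM in vehicle and 4.06, 4.26 and 3.89 CPM in TGFβ. The groups of *Adamtsl1* did not overlap but lay close, with a log2 fold change of -0.39 (SE 0.12). *Adamtsl1* was past the threshold in 6 of 12 alternatives of tool, scaling, filter and libraries. The other 8 members past it were so in all 12, and *Adamts4* in 0. In the main fit 40.7% of all genes tested were past it. The members were selected on this contrast, so nothing follows from these counts.

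Levels of different genes were compared as CPM per kilobase of annotated exon. In vehicle *Adamts5* (115 ± 10.2, SD, n = 3), *Adamts2* (111 ± 5.29) and *Adamts1* (76.4 ± 9.59) stood far above the other members on this scale. The libraries of *Adamts5* (104 to 124) and *Adamts2* (105 to 114) overlapped on this length, while with the length of the longest transcript *Adamts2* (142) lay above *Adamts5* (115). *Adamts12* (14.2 ± 1.49), *Adamts4* (12.2 ± 1.86), *Adamts9* (10.8 ± 0.547), *Adamtsl2* (10.8 ± 0.673) and *Adamtsl4* (10.5 ± 1.61) followed, with the libraries of each overlapping those of the next. *Adamts15* (0.434 ± 0.0722) and *Adamtsl1* (0.418 ± 0.0446) were the lowest and also overlapped.

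With TGFβ, *Adamts2* (75.4 ± 0.763) was the highest member per kilobase, on either length, above *Adamts5* (53.2 ± 9.68) and *Adamts1* (47.8 ± 8.92), whose libraries overlapped. *Adamts12* (32.0 ± 5.97) and *Adamtsl2* (30.5 ± 0.208) came next and overlapped with each other. *Adamts4* (11.4 ± 2.06), *Adamtsl4* (5.27 ± 0.963) and *Adamts9* (3.57 ± 0.106) were lower, and *Adamtsl1* (0.319 ± 0.0144) now stood above *Adamts15* (0.121 ± 0.0141). The order depends on the gene length used. With the length of the longest transcript, *Adamts9* stood at 20.2 in vehicle and 6.70 in TGFβ, 1.87 times its value per exon union. On that length it was the fourth member in vehicle.

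Summed over the 24 family genes in the table, transcripts measured 442 ± 23.5 CPM per kilobase in vehicle and 316 ± 22.1 in TGFβ (SD, n = 3), and the 10 members made up 81.9% and 82.0% of that. The 7 proteoglycanases summed to 216 ± 18.3 and 117 ± 16.6, which is 48.8% ± 1.89 and 37.0% ± 2.70 of the family. The 3 procollagen N-proteinases summed to 115 ± 5.32 and 77.5 ± 0.711, most of it *Adamts2*. The COMP-cleaving pair, *Adamts7* and *Adamts12*, summed to 29.1 ± 2.37 and 38.5 ± 4.91. The 7 ADAMTS-like genes summed to 72.8 ± 4.34 and 70.4 ± 1.78, a difference within the spread, while their share of the family went from 16.5% ± 0.50 to 22.3% ± 1.26. The sums carry the members that were selected on this contrast and are not tested.

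**Figure D2:**
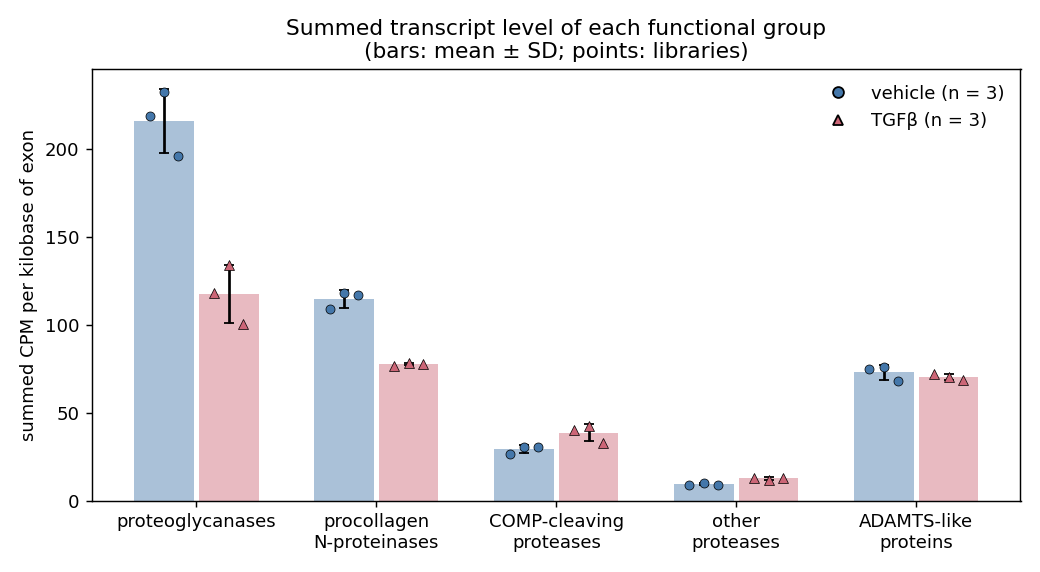
Summed CPM per kilobase of exon for the 5 functional groups of the family, as bars of the group mean with SD (n = 3) and a point for each library. The proteoglycanases go from 216 to 117 and the procollagen N-proteinases from 115 to 77.5, while the ADAMTS-like proteins stay at 72.8 and 70.4.

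The 16 family genes listed outside the set complete the picture. This list and those of substrates, inhibitors, maturation genes and microfibril partners were also chosen with earlier results of these data known. Their counts of calls are therefore a description. Of the 16 genes 14 were in the table, 13 were tested, 3 rose and 5 fell with TGFβ (edgeR quasi-likelihood test, p adjusted over all genes tested). The median log2 fold change of the 13 was -0.55. *Adamts6*, a relative of the fibrillin-linked *Adamts10*, rose from 6.47, 6.78 and 7.98 CPM to 24.5, 23.3 and 26.2 CPM (log2 fold change 1.80, SE 0.09, adjusted p = 1.04e-05 in edgeR). *Adamts10* itself did not pass the test (0.12, SE 0.06, adjusted p = 0.153 in edgeR), except without library B (adjusted p = 0.0420). *Adamts16* was nearly silent in vehicle, with 1, 2 and 1 reads, and had 59, 47 and 72 reads in TGFβ. The ratio of its group totals was 48.5 after scaling, with a 95% exact (Clopper-Pearson) interval from 18.6 to 180 that covers counting error only. The adjusted p was 3.38e-05 in edgeR, and the gene passed the filter on low counts through the TGFβ group alone.

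*Adamts8*, a proteoglycanase-branch gene, rose from 0.597, 0.641 and 0.872 CPM to 4.83, 4.76 and 5.16 CPM (log2 fold change 2.80, SE 0.17, adjusted p = 2.30e-05 in edgeR). It is the neighbour of *Adamts15* on chromosome 9. The pair is transcribed in opposite directions from starts 20.1 kb apart with 0 annotated genes between them, and its log2 fold changes were 2.80 and -1.84. This neighbourhood, like that of *Adamts1* and *Adamts5*, was looked up after the values were seen.

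All 3 procollagen N-proteinases were lower with TGFβ. Beside *Adamts2*, *Adamts14* fell from 17.8, 18.5 and 17.6 CPM to 9.50, 9.45 and 9.12 CPM (log2 fold change -0.94, SE 0.06, adjusted p = 2.79e-05 in edgeR), and *Adamts3* fell with few reads (39 to 102 a library, -1.03, SE 0.16, adjusted p = 0.00188). The COMP-cleaving pair went apart: *Adamts7* fell from 76.4, 92.7 and 112 CPM to 36.5, 38.1 and 49.3 CPM (-1.18, SE 0.16, adjusted p = 0.000845 in edgeR), against 1.17 for *Adamts12*. Among ADAMTS-like genes *Adamtsl3*, the most abundant of them per kilobase in vehicle (37.9 ± 3.51, TGFβ 23.5 ± 1.42), fell (-0.69, SE 0.08, adjusted p = 0.000345 in edgeR), and *Adamtsl5* fell slightly (-0.27, SE 0.06, adjusted p = 0.0102). *Adamts17*, *Adamts20*, *Thsd4* and *Papln* had between 7 and 109 reads a library and did not pass the test, apart from *Thsd4* without library B (log2 fold change -1.23, adjusted p = 0.0308 in edgeR, against -0.92 and 0.120 with all libraries). *Adamts19* had 2 reads in all.

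**Figure D3:**
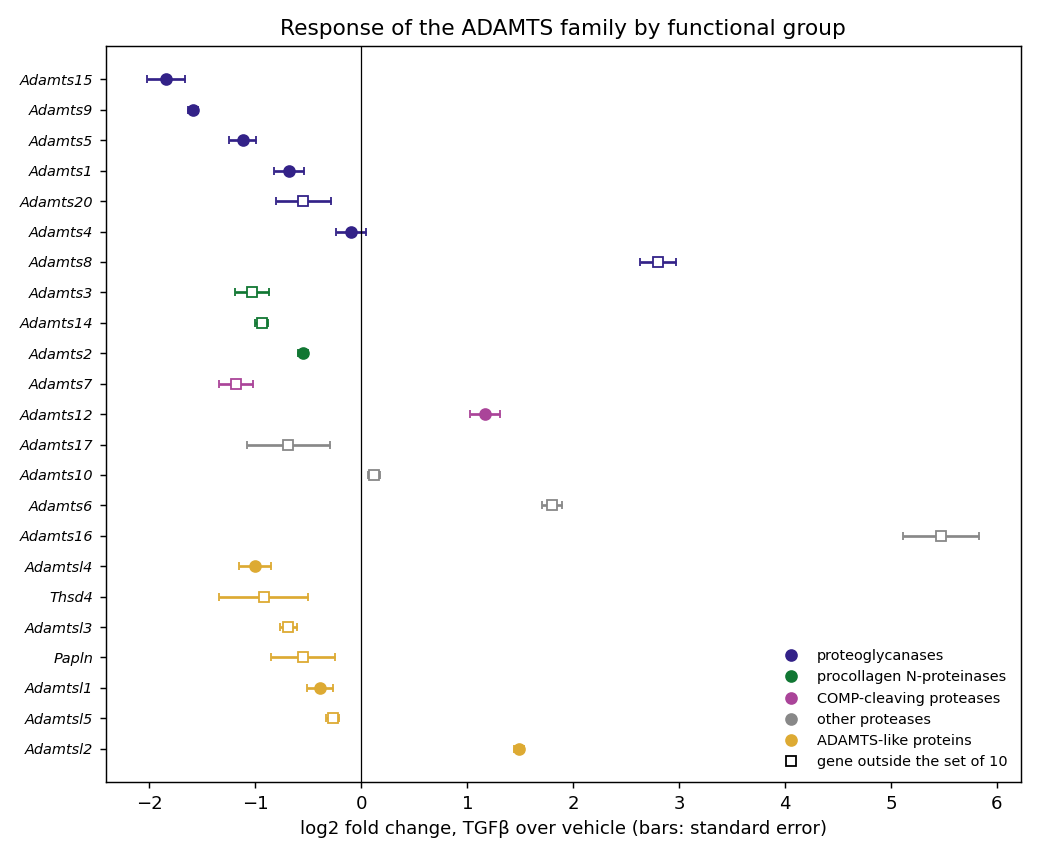
Log2 fold change of TGFβ over vehicle with its standard error for the 23 family genes tested, coloured by functional group, with filled circles for the 10 members and open squares for other genes. All 3 procollagen N-proteinases lie below 0, while *Adamts8* (2.80) stands apart from the other proteoglycanases and *Adamtsl2* (1.49) from the other ADAMTS-like proteins.

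The substrates of the proteoglycanases were measured in the same fit. Of 11 listed matrix substrates 9 were tested, of which 3 rose and 3 fell (median log2 fold change -0.03). *Vcan*, which encodes the versican cut by ADAMTS1, 4, 5, 9 and 15, rose from 148, 153 and 128 CPM to 416, 382 and 304 CPM (1.36, SE 0.12, adjusted p = 0.000118 in edgeR). *Acan*, which encodes aggrecan, rose from 9.58, 7.28 and 7.54 CPM to 46.4, 34 and 44.1 CPM (2.35, SE 0.15, adjusted p = 2.68e-05 in edgeR). The groups of both genes were far apart, in the direction opposite to *Adamts1*, *Adamts5*, *Adamts9* and *Adamts15*. Not all of the proteoglycanase branch was opposite: *Adamts8* rose (2.80), *Adamts4* differed little (-0.10) and *Adamts20* did not pass the test (-0.55, adjusted p = 0.139 in edgeR). *Thbs1* also rose (1.80, adjusted p = 4.17e-05 in edgeR). The nidogens, basement membrane linkers, fell: *Nid2* by 1.48 on the log2 scale (adjusted p = 2.11e-05 in edgeR) and *Nid1* by 0.32 (adjusted p = 0.0293), the latter lost without library B (adjusted p = 0.103) or D (0.0502). *Fmod*, which encodes fibromodulin, fell by 0.73 (adjusted p = 0.00145 in edgeR), and *Bgn*, *Comp* and *Thbs2* did not pass the test (-0.05, 0.20 and -0.03).

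The fibrillar procollagens trimmed by ADAMTS2, 3 and 14 were split, with 2 of 5 higher and 1 lower (median log2 fold change 0.23). *Col3a1* fell from 15402, 18977 and 20460.1 CPM to 8346, 9583 and 10747 CPM (-0.94, SE 0.13, adjusted p = 0.00104 in edgeR). *Col5a1* rose by little (0.29, SE 0.05, adjusted p = 0.00300 in edgeR) and *Col2a1* rose from a low level (2.27, SE 0.30, adjusted p = 0.000885). *Col1a1* stood at 0.23 (SE 0.08), adjusted p = 0.0550 in edgeR, and passed the threshold with DESeq2 (0.00929), limma-voom (0.0369), no filter on low counts (0.0173) and without library C (0.0291). *Col1a2* did not pass (0.13, adjusted p = 0.196 in edgeR).

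Of the inhibitors and clearance genes 5 of 6 were tested, with 2 higher and 2 lower (median log2 fold change 0.13). *Timp3*, whose product is the chief tissue inhibitor of ADAMTS4 and ADAMTS5, rose from 2972, 2229 and 2083 CPM to 4791, 4048 and 4413 CPM (0.86, SE 0.14, adjusted p = 0.00184 in edgeR). *Timp1* rose (1.39, adjusted p = 0.000179 in edgeR) and *Timp2* fell (-0.83, adjusted p = 1.36e-05). *A2m*, which encodes the protease trap α2-macroglobulin, fell at a low level (5.66, 4.75 and 6.97 CPM to 1.79, 1.68 and 3.58 CPM, adjusted p = 0.00918 in edgeR). *Lrp1*, the receptor that takes up ADAMTS4 and ADAMTS5, did not pass (0.13, adjusted p = 0.345 in edgeR), except without library F (0.24, adjusted p = 0.0152).

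Of 5 listed genes of ADAMTS maturation, 3 rose and 0 fell (median log2 fold change 0.25). *Furin*, the convertase that removes the propeptide, rose from 190.4, 191 and 199.9 CPM to 257, 265 and 292 CPM (0.49, SE 0.06, adjusted p = 0.000453 in edgeR). *Pofut2*, which fucosylates thrombospondin repeats for secretion, rose by 0.25 (adjusted p = 0.00229 in edgeR), while *B3glct*, which extends that sugar, did not pass (-0.02, adjusted p = 0.772). *Pcsk5*, another convertase, rose by 0.67 (adjusted p = 0.0287 in edgeR), a call lost without A (0.0564), B (0.0866) or C (0.0627). Library F set much of this value, with 101 CPM against 60.1 and 59.7 in D and E, and without it the log2 fold change was 0.36 (adjusted p = 0.00436 in edgeR). *Pcsk6* measured -0.52 on the log2 scale (adjusted p = 0.0860 in edgeR) and passed without library C (0.0205) or without the filter (0.0447).

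All 8 microfibril partners of the ADAMTS-like proteins passed the test, 6 upwards and 2 downwards (median log2 fold change 0.54). *Ltbp1*, a carrier of latent TGFβ that binds ADAMTSL2, rose from 49.8, 49.7 and 44.7 CPM to 161, 146 and 127 CPM (1.59, SE 0.09, adjusted p = 1.67e-05 in edgeR). *Ltbp2* rose more (3.12, adjusted p = 3.48e-06 in edgeR), and *Ltbp4*, *Mfap5*, *Fbn1* and *Ltbp3* rose by 0.97, 0.67, 0.41 and 0.30. The fibrillins went apart, as *Fbn2* fell from 24.1, 24.2 and 26.5 CPM to 5.92, 6.52 and 6.59 CPM (-1.97, SE 0.07, adjusted p = 4.10e-06 in edgeR). *Mfap2* fell by 0.78 (adjusted p = 0.00943 in edgeR). Over all 45 related genes tested, 19 rose and 13 fell, beside 20.5% and 20.1% of all genes tested. Since the lists were chosen with earlier results known, nothing follows from these counts.

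**Figure D4:**
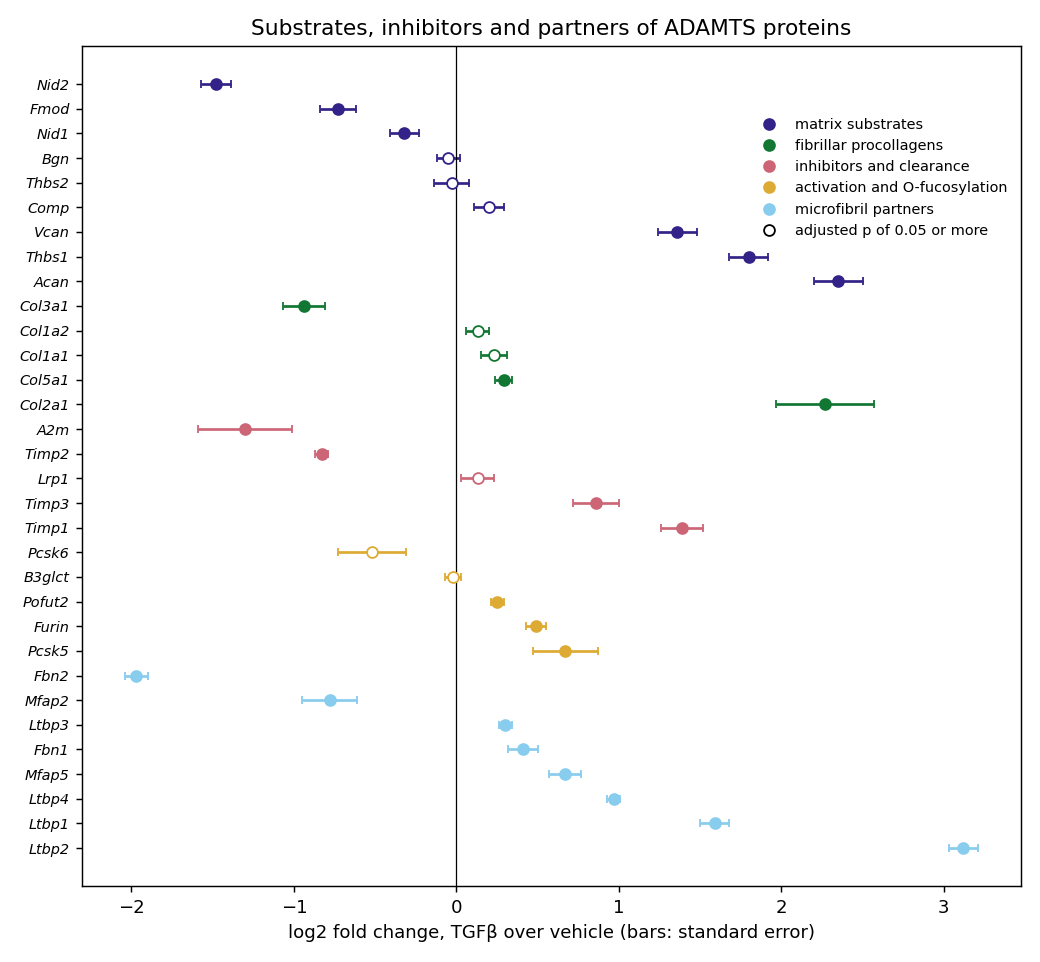
Log2 fold change of TGFβ over vehicle with its standard error for substrates, procollagens, inhibitors, maturation genes and microfibril partners, with open points for an adjusted p of 0.05 or more. *Vcan* (1.36) and *Acan* (2.35) lie to the right of 0, and *Ltbp2* (3.12) and *Fbn2* (-1.97) are the extremes.

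Deviations from the group mean, from which the difference between the groups is removed, were compared between members. The selection may still have favoured members with a small spread within groups. *Adamts1*, *Adamts5*, *Adamts12* and *Adamtsl4* were lowest in library C among the vehicle libraries and lowest in F among the TGFβ libraries, a pattern that 20% of all genes tested had. *Adamts4* and *Adamts9* were highest in C and F, as were 19.5% of all genes tested. Over the 6 libraries the deviations of *Adamts1* and *Adamts5* had a Pearson r of 0.99, those of *Adamts5* and *Adamts12* 0.97, and those of *Adamts4* and *Adamtsl4* -0.96. These are extremes of 45 pairs of members, of which 24 had an r between -0.5 and 0.5. The points share the libraries and the removal of each group's mean, and these values are a description. Between these libraries *Adamts12* varied with *Adamts1* and *Adamts5* while its group difference had the opposite sign. The summed endothelial markers (459, 524 and 714 CPM in A, B and C, then 418, 469 and 582 in D, E and F) and leukocyte markers (242, 255 and 347, then 211, 225 and 314) were also highest in C and F. Most of the leukocyte sum was *Lyz2* (201, 206 and 289.9 CPM, then 172, 176 and 258). The endothelial marker *Tek* was instead lowest in C and F (79.7, 92.7 and 74.6 CPM, then 94.8, 115 and 83.8). The leukocyte marker *Ptprc* was higher in E (3.47 CPM) than in F (2.98). All other markers of both lists were highest in C and F. The summed mesothelial markers were instead highest in A and D (83.7, 24.6 and 33.1 CPM, then 41.6, 16.1 and 18.9), as was each marker of that list. The fit had no term for a pattern shared between libraries of both groups, so such a pattern counts as spread within groups. Whether libraries were matched between the groups was not tested. The part of these cell types was not tested. *Adamts2*, *Adamts9* and *Adamtsl2* varied least, with a within-group SD of 0.05, 0.06 and 0.06 on the log2 scale, against 0.25 for *Adamtsl4*.

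**Figure D5:**
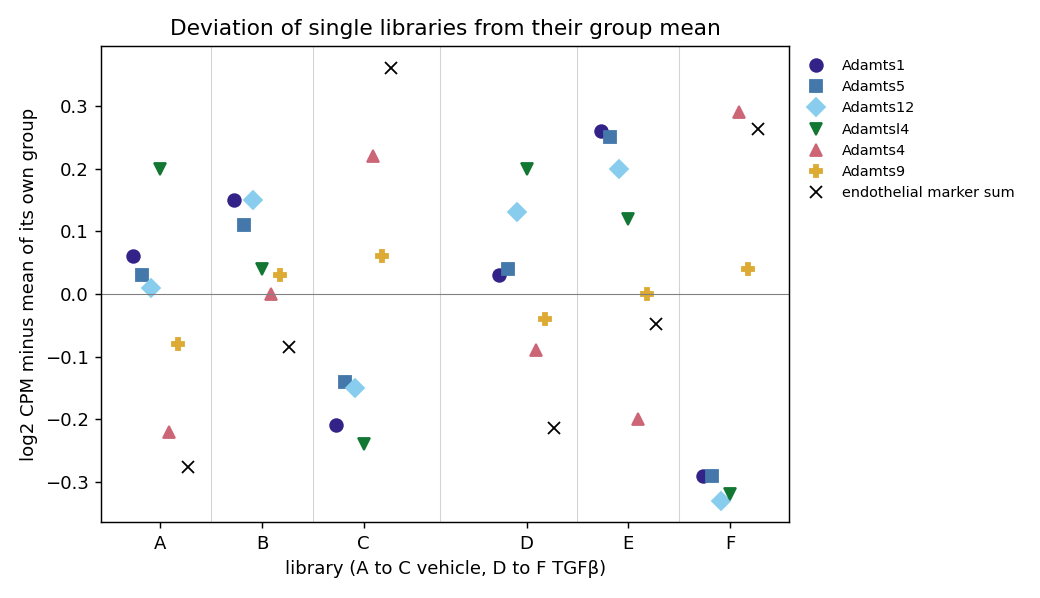
Deviation of log2 CPM from the mean of its own group in each library, for 6 members and for the summed endothelial markers. In C and F *Adamts1*, *Adamts5*, *Adamts12* and *Adamtsl4* lie between -0.14 and -0.33, while *Adamts4* lies at 0.22 and 0.29.

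The genes whose profile over the 6 libraries was nearest to that of *Adamtsl2*, by root mean square distance of centred log2 CPM among 10372 genes averaging 5 CPM or more, were *Cacna1g* (0.07), *Tnfrsf11b* (0.08) and *Ctgf* (0.08), the last being the TGFβ target also named *Ccn2*. *Cacna1g* measured 3.05, 2.50 and 2.92 CPM in vehicle and 8.74, 8.24 and 7.68 CPM in TGFβ. *Ctgf* measured 1139, 988 and 1178 CPM and 3132, 2827 and 3298 CPM. Those nearest to *Adamts15*, among 10373 genes, were *Lifr* (0.11), *Igf2bp2* (0.12) and *Nid2* (0.12), of which *Lifr* fell from 41.1, 46 and 51.1 CPM to 17.1, 16.3 and 15.4 CPM. Their log2 fold changes were -1.50, -1.36 and -1.48, against -1.84 for *Adamts15*, whose low level makes the pseudocount of 0.5 CPM used for this distance shrink its own profile. With 6 libraries in 2 groups, this distance carries the size of the group difference as well as the pattern between replicates.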

How the data were processed

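Polyadenylated RNA of 3 vehicle and 3 TGFβ cultures was sequenced from a stranded library with single-end reads. The authors aligned the reads to mm10 and used DESeq2, as the methods and the submitters' processing notes state. The aligner, the counting tool, the annotation and the use of strand in counting are not given in the sources used here. The deposited table holds raw read counts per gene and library, without normalization, and the authors' own comparison (mean, log2 fold change, SE, statistic, p and adjusted p), which was not used. Its count columns name the group but not the replicate.

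Counts were scaled with TMM, filtered with filterByExpr and tested with the quasi-likelihood test of edgeR 4.0.16 (R 4.3.3), vehicle against TGFβ without covariates, with Benjamini-Hochberg adjustment over 14334 genes. The labels do not say whether replicates came from separate animals, so p-values measure the spread between these libraries only. CPM and CPM per kilobase (GENCODE M21 exon unions, GRCm38) were computed from the counts. The biological coefficient of variation was 7.97%, and counting error covers sampling of reads only. The steps were tested on simulated data. Alternatives were DESeq2 1.42.0, limma-voom (limma 3.58.1), 2 other scalings, no filter, a filter of 1 CPM in 3 libraries, stricter thresholds, the longest transcript as gene length, and each library left out.

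The members and gene lists were chosen with earlier results of these data known. Named genes are the members, the related lists, TGFβ targets and the 3 nearest profiles (pseudocount 0.5) of the members with the largest rise and fall. Some results that this rule takes in are not reported here. The functional groups, the TATA box and the chromosomal neighbours were chosen after values were seen. Gene identifiers and symbols are those of the table, and no 75-base window of any member's longest transcript occurred in another gene.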

Additional observations from a re-analysis of the deposited data

How the results depend on the processing

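With an adjusted p of 0.01 in edgeR, 3595 genes changed (1855 higher, 1740 lower). With a log2 fold change beyond 1 also required, 971 genes changed (346 higher, 625 lower), 15 related genes (10 higher, 5 lower) and 5 members (2 higher, 3 lower). Over the 12 alternatives of tool, scaling, filter and left-out library, no member past the threshold changed sign, 0 members moved by more than the spread between replicates and 0 genes were called in opposite directions. The number of members past the threshold was 8 or 9, *Adamtsl1* being the member lost with DESeq2 and without A, C, D, E or F. Because the members were selected on this contrast, nothing follows from this number. The call changed in 7 related genes, each given above. The number of related genes called stayed between 31 and 34. With single libraries left out, between 4489 and 5481 genes changed. Of the 20 levels per kilobase, 12 moved by more than the replicate SD with the longest transcript as length, by up to 1.87 times. No paired analysis was possible because the count columns carry no replicate numbers. With 3 libraries a group, small differences such as that of *Adamtsl1* rest on few reads (111 to 186 a library). Transcript levels give no protein amount or protease activity.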
